A study of Mus musculus with 8 samples.

Results

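Kinesins are the motor proteins that walk along or take apart microtubules, and their genes carry symbols that begin with Kif or Kifc. Among 17589 genes with expression values in mouse spermatogonia, 39 were kinesin genes by symbol, with 97 transcript entries between them. Of these, 37 averaged 1 FPKM or more across the 8 libraries and were tested for a difference between Kdm1a knockout and control cells. FPKM, fragments scaled to transcript length and library size, is a level per length of transcript, so levels of different genes can be set side by side.

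Mitotic kinesins build the spindle, move and align chromosomes, and drive the last step of cell division. Transport kinesins carry vesicles, organelles and ciliary parts towards the plus ends of microtubules, often through light chains or adaptor proteins that hold the cargo. Spermatogonia divide repeatedly by mitosis, and their daughter cells stay joined by bridges left from incomplete cytokinesis. The genes were divided by textbook function into 14 mitotic kinesins, 16 transport kinesins and 9 others, which act mainly in cilia, in microtubule disassembly or as scaffolds.

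Cells came from testes of C57BL/6 mice at 6 days after birth that carry the GOF/deltaPE-Oct4/GFP reporter, in which GFP is driven by regulatory sequence of the Oct4 gene, and GFP-positive germ cells were sorted by flow cytometry. There were 4 control libraries and 4 knockout libraries, and both groups carried the reporter. The knockouts are called conditional in the labels (Kdm1a-cKO), and the sources used here do not give the Cre driver. KDM1A, also named LSD1, is a histone demethylase, and the series asks how its loss alters expression in these cells. Nothing in the labels says that the libraries came from separate animals, so p-values reflect only how much these samples vary, which may be technical variation. In bulk RNA, fewer cells of a type and less RNA per cell cannot be told apart.

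Kdm1a itself fell from 61.9 ± 20.2 to 15.1 ± 1.49 FPKM (mean ± SD, n = 4 libraries per group, as for all such values here). The steps between low values gave a depth of 60500000 to 67000000 fragments per control library and 45250000 to 63250000 per knockout library. Knockout replicate 2 was the shallowest library and stood apart: it correlated with the other knockouts at 0.949 to 0.966, while pairs of controls were at 0.967 to 0.981. Germ cell markers summed to 807 to 866 FPKM in control libraries and 761 to 798 in knockout libraries, and 2 of 6, Zbtb16 and Sall4, fell, where 12.1% of all genes fell. Of the 6, 5 had a log2 change (knockout minus control) below 0 and 1 above. Their median was -0.51 against 0.09 over all genes, and Zbtb16 went from 61.2 ± 7.62 to 22.35 ± 7.21 FPKM. Sertoli cell markers summed to 14.7 to 45.2 and 20.96 to 56.3 FPKM, with 0 of 5 tested called by limma and 1 higher at an unadjusted p under 0.05. All 5 tested had a log2 change above 0, with a median of 0.76. Sums for peritubular (4.09 to 6.80 and 4.79 to 7.26 FPKM), macrophage (1.99 to 2.75 and 1.67 to 3.49, from 2 of 7), Leydig (1.24 to 2.16 and 1.23 to 1.83, from 1 of 6 listed genes), neuronal (1.65 to 2.63 and 2.62 to 3.32) and erythroid markers (0.282 to 0.760 and 1.603 to 2.50, from 2 of 7) were low. Endothelial markers summed to 8.37 to 14.3 FPKM in control libraries and 12.1 to 12.8 in knockout libraries, where Tek and Pecam1 rose and Plvap fell. The part of these cell types in the kinesin values was not tested.

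Most mitotic and most transport kinesins did not pass the test, and those that did moved in both directions, while 7 of the 8 others passed, 6 of them lower in FPKM as deposited. The 6 include Kif19a, which passed the filter on low values through its controls alone. Differences between the classes were not tested. Over all genes, 37.5% of 13483 were called, at an adjusted p under 0.05 in limma, with 25.3% that rose and 12.1% that fell. Among the 37 kinesin genes, 6 rose, 10 fell and 21 were not called. Their median change, knockout minus control, was -0.21 on the log2(FPKM + 1) scale, against 0.09 over all genes. The groups did not overlap in 17 kinesin genes, 6 higher and 11 lower in the knockouts, and over all genes this held for 38.6%.

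**Figure D1:**
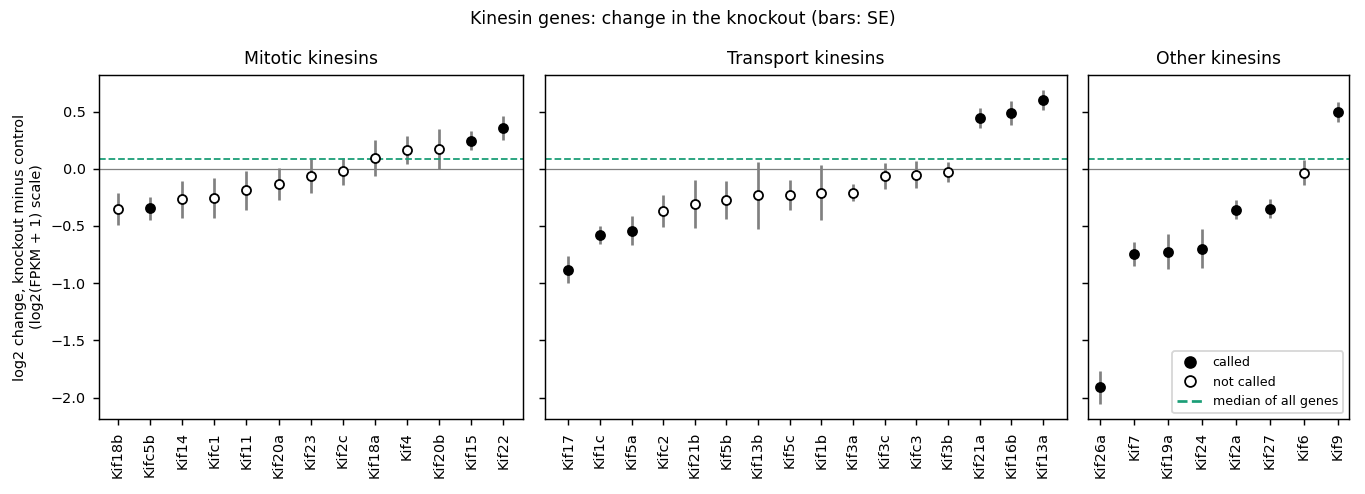
Log2 change of each of the 37 kinesin genes (knockout minus control, on the log2(FPKM + 1) scale, bars for SE), in the mitotic, transport and other classes, with filled points for genes called by limma. Mitotic kinesins lie between -0.35 and 0.36, transport kinesins between -0.88 and 0.60, and Kif26a at -1.91, and all but Kif26a, Kif17, Kif19a, Kif24 and Kif7 among the called falls change sign when libraries are given equal FPKM totals.

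That balance depends on how libraries are scaled. When libraries were given equal FPKM totals, the median over all genes moved from 0.09 to 0.74, and 9549 genes rose while 151 fell, so 15 kinesin genes rose and 1 fell. Relative to the median over all genes, the mitotic median was -0.15 as deposited and -0.09 with equal totals, and the transport median -0.31 and -0.29. Median-ratio scaling gave 2633 rises and 2448 falls over all genes and 4 rises and 13 falls among the kinesins, and quantile normalization gave 2655 and 2648, with 5 and 13. With small RNAs removed and the remaining genes given equal totals, the counts were 2771 and 2018 over all genes and 5 and 11 among the kinesins. The median over all genes was then 0.01, beside 0.74 for equal totals with small RNAs kept. In the lists of partner genes described below, 16 rises and 17 falls became 52 and 1 with equal totals. Directions below are those of the FPKM as deposited.

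Of 13 mitotic kinesins tested, 2 rose, 1 fell and 10 were not called. Their median change was -0.06 and their median size of change 0.19, against a median size of 0.27 over all genes. The largest was 0.36 in either direction. None of the 13 tested doubled or halved, and 8 of them had a change below 0.

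Kif2c encodes a motor that takes microtubules apart at kinetochores to correct wrong attachments. Its level in the controls was 54.1, 37.2, 45.9 and 50.5 FPKM, in replicate order as for all such values, and in the knockouts 51.5, 44.6, 44.7 and 42.6. Its group ranges overlapped and the means differed by less than the spread (46.9 ± 7.32 and 45.9 ± 3.87, adjusted p = 0.898). It was the highest kinesin gene in the knockouts and second to Kif2a in the controls.

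Kif20a carries the chromosomal passenger complex to the spindle midzone for cytokinesis. Its levels were 55.4, 38.4, 43.4 and 45.7 FPKM in the controls and 49.0, 33.1, 41.6 and 43.0 in the knockouts, which overlapped (log2 change -0.13, SE 0.14, adjusted p = 0.491). Kif11, known as Eg5, slides antiparallel microtubules apart to make the spindle bipolar. It was at 45.7, 29.1, 35.9 and 43.0 FPKM in the controls and 41.5, 26.4, 30.5 and 35.98 in the knockouts (log2 change -0.19, SE 0.17, adjusted p = 0.419). Kif23 is the motor of centralspindlin and remains at the bridges between germ cells. It was at 40.9, 26.7, 28.8 and 31.0 FPKM in the controls and 37.2, 25.7, 28.8 and 29.8 in the knockouts (log2 change -0.06, SE 0.15, adjusted p = 0.777). For Kif20a, Kif11 and Kif23 alike, replicate 1 was the highest and replicate 2 the lowest library of each group.

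Kif22 was the clearest rise among mitotic kinesins. It encodes a chromokinesin that binds DNA and pushes chromosome arms towards the spindle equator. Its levels were 34.6, 27.7, 36.02 and 37.1 FPKM in the controls and 45.4, 46.9, 39.3 and 42.3 in the knockouts, so every knockout library lay above every control. The mean rose 1.28-fold, from 33.8 ± 4.22 to 43.5 ± 3.38 (log2 change 0.36, SE 0.10, adjusted p = 0.0247). That call was lost with the replicate number as a block (adjusted p = 0.0691), with median-ratio scaling (0.0617) and without knockout replicate 1 (0.0542).

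Kif15, a motor that can keep the spindle bipolar beside Kif11, was at 15.2, 15.0, 13.4 and 14.3 FPKM in the controls and 18.7, 15.3, 17.9 and 17.6 in the knockouts. It rose 1.20-fold (log2 change 0.25, SE 0.09, adjusted p = 0.0474), just under the threshold. Knockout replicate 2, at 15.3, was close to the highest control, at 15.2. Leaving out any library but knockout replicate 2 ended the call, with adjusted p from 0.0668 to 0.127, and so did the replicate block (0.0864). The change shrank and the call was lost with median-ratio scaling (0.14, adjusted p = 0.318), quantile normalization (0.15, 0.214) and small RNAs removed (0.15, 0.396).

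Kifc5b was the mitotic kinesin that fell. It is a near copy of Kifc1, a minus-end motor that focuses spindle poles, and fragments shared by the 2 genes were divided by the authors' counting, so the level of each is uncertain. Kifc5b was at 11.02, 9.04, 10.53 and 11 FPKM in the controls and 8.81, 6.89, 7.79 and 8.43 in the knockouts, 1.30-fold lower (log2 change -0.34, SE 0.10, adjusted p = 0.0252). Kifc1 went from 22.8 ± 4.59 to 18.9 ± 3.76 FPKM and was not called (log2 change -0.25, adjusted p = 0.285). The Kifc5b call was lost without control replicate 1, 3 or 4 or knockout replicate 3 (adjusted p 0.0629 to 0.0707), and with equal totals its sign turned (0.31).

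The 5 mitotic kinesins not yet described were not called, with changes from -0.35 to 0.17. Kif18b, a plus-end depolymerase that limits astral microtubules, went from 21.8 ± 3.32 to 16.9 ± 2.84 FPKM (log2 change -0.35, adjusted p = 0.0730) and was called with the replicate block (adjusted p = 0.0151), median-ratio scaling (0.0344), quantile normalization (0.0380), without control replicate 2 (0.0468) and without knockout replicate 1 (0.0297). Kif18a, which dampens chromosome movement at the metaphase plate, was at 19.99 ± 3.41 and 21.4 ± 3.88 FPKM. Kif20b, which acts in cytokinesis, was at 21.4 ± 2.92 and 24.6 ± 6.03 FPKM, and the chromokinesin gene Kif4 on the X chromosome at 15.3 ± 1.91 and 17.2 ± 2.66. Kif14, a midbody motor, was the lowest that was tested, at 7.12 ± 0.916 and 5.84 ± 1.44 FPKM.

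Kif2b, the remaining mitotic kinesin, lay outside the filter with a mean of 0.322 FPKM and was tested only with no filter on low values. It is a relative of Kif2c that is known mainly from testis. Its levels were 0.105, 0.0661, 0.125 and 0.0537 FPKM in the controls and 0.702, 0.494, 0.529 and 0.502 in the knockouts, a ratio of means of 6.38. These correspond to 7 to 18 fragments in a control library and 47 to 93 in a knockout library. Kif26b was the other gene outside the filter, with a mean of 0.181 FPKM. With no filter, 3 of 14 mitotic kinesins rose and 7 of 9 other kinesins fell. Over all 17589 genes, 4642 then rose and 1997 fell. Just inside it were Kif19a (1.12) and Kif21a (1.59).

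**Figure D2:**
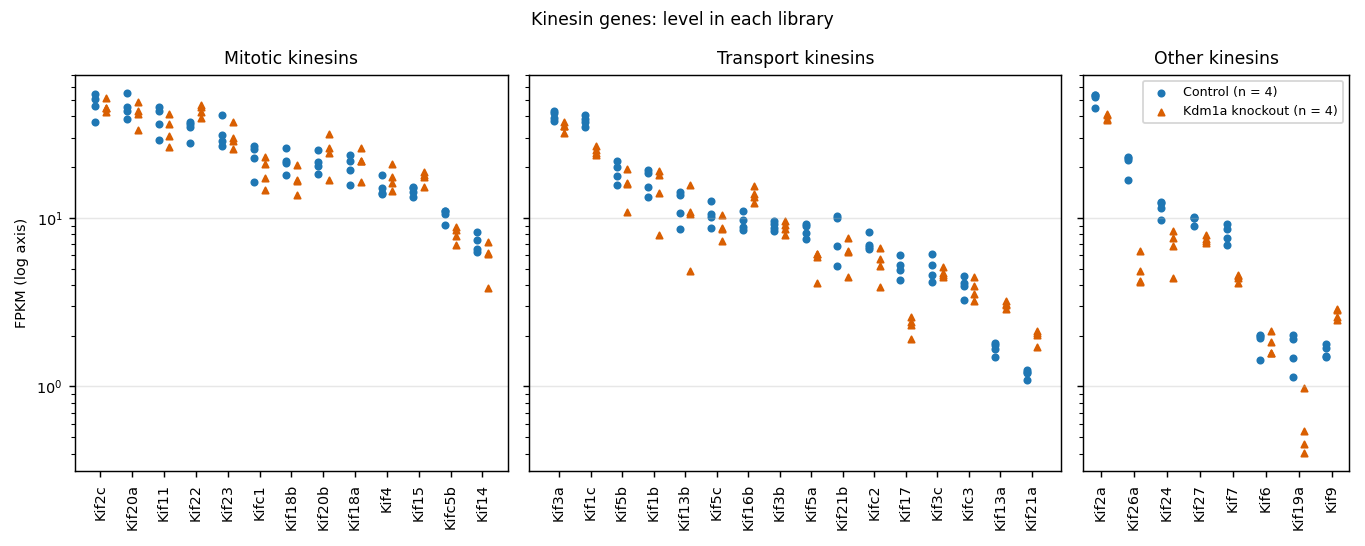
FPKM of the 37 tested kinesin genes in each library on a log axis, with circles for the 4 controls and triangles for the 4 knockouts, ordered within each class by level. Mitotic genes such as Kif2c, Kif20a and Kif11 overlap between groups, while Kif26a separates at 16.8 to 23.1 in control libraries and 4.19 to 6.38 in knockout libraries.

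The mitotic kinesins shared a pattern among libraries of the same group. Control replicate 1 was the highest control in 12 of the 13 tested, and control replicate 2 the lowest in 10. In the knockouts, replicate 1 was the highest in 12 and replicate 2 the lowest in 11. Summed over the class, the controls ranged from 272.9 to 384.8 FPKM and the knockouts from 278.8 to 381.0. The means were 330.0 ± 47.0 and 325.3 ± 42.6, a difference far inside the spread. Among transport kinesins the controls had another order, with replicate 4 the lowest in 12 of 16 and replicate 2 the highest in 10. The knockouts kept the order seen in the mitotic class, with replicate 1 the highest in 10 of 16 and replicate 2 the lowest in 9.

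Promoter sequence was compared between the classes as a property that neither the symbol rule nor the expression values use. Genes that peak in late cell cycle often carry the CHR element, whose core is TTTGAA, and CCAAT boxes close to the start of transcription. Both words were searched on both strands (TTCAAA and ATTGG are their reverse complements) from 250 bases before to 50 bases after each RefSeq start in GRCm38.p6. The words can share an end base, and such a match was counted for both. Promoters were found for 31 of the 39 kinesin genes. TTTGAA was present in 11 of 13 mitotic kinesins with a promoter (84.6%), 0 of 10 transport kinesins and 2 of 8 others (25.0%), against 20.2% of 27025 genes. In 9 mitotic kinesins it lay within 50 bases of the start. CCAAT was present in 9 of 13 mitotic (69.2%) and 3 of 10 transport kinesins (30%), against 41.1% of all genes. Both words were found in 8 mitotic kinesins (61.5%) and 0 transport kinesins, against 8.97% of all genes. The RefSeq start lay 3867 bases downstream of the start of the most abundant entry in Kif2c, 11816 in Kif17 and 328 in Kif4. In Kif2a and Kif7 it lay far upstream. For these genes the stretch searched is not that around the start of the main entry measured. The near copies Kifc1 and Kifc5b both count among the 11. A match is a description of these letters, not a site shown to be used.

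The 30 bases around the match nearest to the start are printed for 8 of these genes, which include both mitotic kinesins that rose, the one that fell and several that were not called, so the shared word can be set beside unlike values. Each runs 5′ to 3′ on the gene's strand, with the match on either strand in capitals.
Kif22 (chr7:127042420-127042449, minus strand, rose): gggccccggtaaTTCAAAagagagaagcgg
Kif15 (chr9:122951050-122951079, plus strand, rose): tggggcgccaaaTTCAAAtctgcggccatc
Kifc5b (chr17:26917108-26917137, plus strand, fell): cggaggttgaaaTTCAAAagtgactggtgt
Kifc1 (chr17:33890615-33890644, minus strand, not called): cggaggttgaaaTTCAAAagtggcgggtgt
Kif11 (chr19:37376351-37376380, plus strand, not called): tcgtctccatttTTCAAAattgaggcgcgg
Kif23 (chr9:61946780-61946809, minus strand, not called): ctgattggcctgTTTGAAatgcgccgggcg
Kif18b (chr11:102925104-102925133, minus strand, not called): cggaccggctagTTTGAAcgcgccgcgccg
Kif20b (chr19:34922353-34922382, plus strand, not called): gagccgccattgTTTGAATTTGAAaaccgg
Kif20b held the word as a tandem pair, and the longer stretch searched held a second match in Kif22 (at -215) and in Kif15 (at -234). Counted from the start as +1, the matches began at -17 in Kif22, -19 in Kif15 and Kif11, 2 in Kifc1, 3 in Kif23 and 4 in Kif18b.

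For contrast, the 120 bases before the start are printed for Kif11, with its CCAAT box (as ATTGG) and TTTGAA match (as TTCAAA) in capitals, and for Kif1c and Kif26a, a transport kinesin and a scaffold kinesin that fell and that held neither word.
Kif11 (chr19:37376262-37376381, plus strand): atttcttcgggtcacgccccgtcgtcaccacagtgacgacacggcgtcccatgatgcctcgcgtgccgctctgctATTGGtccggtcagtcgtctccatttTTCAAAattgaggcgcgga
Kif1c (chr11:70700428-70700547, plus strand): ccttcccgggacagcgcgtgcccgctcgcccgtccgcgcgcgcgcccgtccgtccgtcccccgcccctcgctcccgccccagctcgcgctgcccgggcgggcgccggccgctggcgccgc
Kif26a (chr12:112146088-112146207, plus strand): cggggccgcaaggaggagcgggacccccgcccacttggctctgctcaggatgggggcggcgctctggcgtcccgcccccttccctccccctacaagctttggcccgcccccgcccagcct
In these 3 windows the words were in Kif11 and in neither of the genes that fell. Other genes that fell did hold them in the stretch searched: both words in Kifc5b and Kif27, and CCAAT in Kif24. No match says only that these letters are not in the window searched.

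The genes that work with mitotic kinesins at the spindle and in cytokinesis were searched and tested in the same way. Of 20 listed, 0 rose, 3 fell and 17 were not called by limma, or 15% called against 37.5% of all genes. At an unadjusted limma p under 0.05, 1 was higher and 8 were lower, beside 4175 higher and 2156 lower of all 13483 genes. The median change was -0.26, against 0.09 over all genes. Hmmr, which helps to assemble microtubules at spindle poles, fell from 15.3 ± 2.10 to 9.82 ± 1.62 FPKM (log2 change -0.59, adjusted p = 0.00862). Aurkb, the kinase of the passenger complex that Kif20a carries, fell from 47.2 ± 4.71 to 37.7 ± 0.532 FPKM (adjusted p = 0.0155), and Cit, the midbody citron kinase that binds Kif14, from 16.8 ± 3.73 to 10.2 ± 3.26 (adjusted p = 0.0376), with groups that overlapped. TTTGAA was in 12 of the 17 promoters found for this list (70.6%) and both words were in 11 (64.7%). Cenpe, a kinetochore kinesin outside the symbol rule, went from 32.1 ± 4.69 to 27.2 ± 5.32 FPKM and was not called (adjusted p = 0.224).

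Transport kinesins moved in both directions. Of the 16 in the class, all tested, 3 rose and 3 fell while 10 were not called, a called share of 37.5%, the same as over all genes. The median change was -0.22 with a median size of 0.29, and 13 of 16 were below 0. The rises included the 2 lowest genes of the class, Kif13a and Kif21a.

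Kif17 had the largest fall in the class. It encodes a motor of the kinesin-2 family known from dendrites and cilia, and from round spermatids, where it moves a partner of the activator CREM. The gene (ENSMUSG00000028758) lies on the plus strand of chromosome 4 from 138250435 to 138301967 in mm10. Its levels were 4.89, 6.04, 5.25 and 4.27 FPKM in the controls and 2.33, 2.41, 2.59 and 1.91 in the knockouts, with no overlap. The mean fell 2.21-fold (log2 change -0.88, SE 0.12, adjusted p = 0.000434), and with equal totals the change was -0.33 and no longer called (adjusted p = 0.194).

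Kif1c encodes a fast motor for vesicles between the Golgi and the cell edge, and was the second highest transport kinesin in the controls. It was at 40.9, 38.4, 37.2 and 34.5 FPKM in the controls and 25.2, 26.8, 24.2 and 23.5 in the knockouts. The 4 knockout libraries lay in a narrow band below all controls, 1.52-fold lower on average (37.7 ± 2.69 and 24.9 ± 1.42, log2 change -0.58, SE 0.08, adjusted p = 0.000507). With equal totals its change was 0.12 and not called, so its direction depends on that scaling.

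Kif5a is a heavy chain of conventional kinesin best known from neurons. It was at 8.12, 9.15, 8.995 and 7.52 FPKM in the controls and 6.13, 4.09, 6.08 and 5.84 in the knockouts, 1.53-fold lower (log2 change -0.54, SE 0.13, adjusted p = 0.00923), and with equal totals its change was 0.09. The widely expressed heavy chain gene Kif5b was at 20.1, 21.7, 17.8 and 15.7 FPKM in the controls and 19.6, 10.9, 15.8 and 16.2 in the knockouts, which overlapped (log2 change -0.27, SE 0.17, adjusted p = 0.226). Kif5c, the third heavy chain, went from 10.51 ± 1.65 to 8.79 ± 1.30 FPKM and was not called (adjusted p = 0.197). Knockout replicate 2 was the lowest library for all 3 heavy chains.

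Kif13a rose the most among transport kinesins. It carries cargo of the AP-1 adaptor, such as the mannose-6-phosphate receptor, to the cell surface and helps to shape recycling endosomes. Its levels were 1.81, 1.752, 1.68 and 1.49 FPKM in the controls and 3.23, 2.87, 3.10 and 3.06 in the knockouts, 1.82-fold higher with no overlap (log2 change 0.60, SE 0.09, adjusted p = 0.000690). Its relative Kif13b was at 13.7, 14.2, 10.7 and 8.60 FPKM in the controls and 15.6, 4.83, 10.52 and 10.8 in the knockouts, and it missed the threshold (adjusted p = 0.561). Knockout replicates 1 and 2 were the highest and the lowest of all 8 libraries for Kif13b.

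Kif21a, which with KANK proteins restrains microtubule growth at the cell cortex, was at 1.26, 1.09, 1.22 and 1.21 FPKM in the controls and 2.15, 1.71, 2.03 and 2.09 in the knockouts. It was 1.67-fold higher with no overlap (log2 change 0.44, SE 0.09, adjusted p = 0.00414). Kif21b, a relative that pauses at growing ends, went from 8.06 ± 2.48 to 6.18 ± 1.29 FPKM and was not called (adjusted p = 0.282).

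Kif16b carries early endosomes through a domain that binds their lipid. Its summed level was 11.1, 9.70, 8.53 and 8.79 FPKM in the controls and 13.3, 15.5, 13.8 and 12.3 in the knockouts, 1.44-fold higher (log2 change 0.49, SE 0.10, adjusted p = 0.00596). This rise rested partly on a retained-intron entry of 1542 bases, which held 57.4% of the gene's FPKM in knockout replicate 2 and almost none in knockout replicate 1. The protein-coding entry of 6383 bases alone went from 8.84 ± 1.87 to 10.2 ± 2.75 FPKM and was not called (log2 change 0.17, SE 0.20, adjusted p = 0.555).

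Kif3a, a subunit of the heterotrimeric kinesin-2 that moves cargo along cilia, was the highest transport kinesin. It was at 41.7, 43.1, 39.2 and 37.6 FPKM in the controls and 37.1, 35.1, 35.1 and 32.0 in the knockouts. Every knockout library lay below every control, but the change missed the threshold (log2 change -0.21, SE 0.08, adjusted p = 0.0601) and reached it with median-ratio scaling (-0.32, 0.0154), quantile normalization (-0.26, 0.0391) and without knockout replicate 2 (-0.21, 0.0496). Its partner Kif3b was at 8.97 ± 0.569 and 8.78 ± 0.730 FPKM, with a change of -0.03, and the alternative partner Kif3c at 5.01 ± 0.845 and 4.71 ± 0.285. Kifap3, the third subunit of the complex, rose from 9.09 ± 0.713 to 11.5 ± 0.882 FPKM (adjusted p = 0.0246).

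Kif1b, which carries mitochondria and synaptic vesicle precursors, was at 19.3, 18.5, 15.3 and 13.3 FPKM in the controls and 18.9, 7.97, 14.1 and 18.1 in the knockouts (log2 change -0.21, SE 0.24, adjusted p = 0.525). The groups overlapped, and knockout replicate 2 was far below the other knockouts. The minus-end motors Kifc2 and Kifc3 went from 7.10 ± 0.761 to 5.34 ± 1.15 and from 3.97 ± 0.534 to 3.79 ± 0.525 FPKM. Neither was called (adjusted p = 0.0675 and 0.760), though Kifc2 was without knockout replicate 2 (0.0169), with the replicate block (0.0408) and with median-ratio scaling (0.0245), quantile normalization (0.0236) or small RNAs removed (0.0265).

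Knockout replicate 2 was low at long transcripts. It lay below the other 3 knockouts in 14 of 18 kinesin genes whose most abundant entry was longer than 4819 bases, and in 8 of 19 with shorter ones. Over all genes, the median ratio of this library to the median of the other knockouts was 0.763 for entries longer than that and 1.11 for the rest. Without it, 3 transport kinesins rose and 5 fell, in place of 3 and 3, 2 mitotic kinesins rose and 1 fell as before, and over all kinesin genes 6 rose and 12 fell. The part of this library's profile in the spread of Kif13b, Kif1b and Kif5b was not tested.

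Summed over the class, transport kinesins were at 194.9 ± 19.2 FPKM in the controls and 164.8 ± 14.6 in the knockouts. The mitotic sums differed by less than their spread, and mitotic kinesins took a larger share of all kinesin FPKM in the knockouts. The control libraries had shares of 54.6%, 46.2%, 51.7% and 55.9%, and the knockout libraries 59.8%, 56.8%, 57.5% and 58.6%. The groups did not overlap, though the gap between the highest control and the lowest knockout was small beside the range of the controls. With Kif2a counted as mitotic, a choice tried after seeing the data, they did overlap, at 53.8% to 64.7% in the controls and 64.6% to 66.2% for the knockouts. The ratio of mitotic to transport FPKM overlapped, at 1.28 to 2.02 in control libraries and 1.89 to 2.08 in knockout libraries. A share within a library does not depend on how libraries are scaled.

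**Figure D3:**
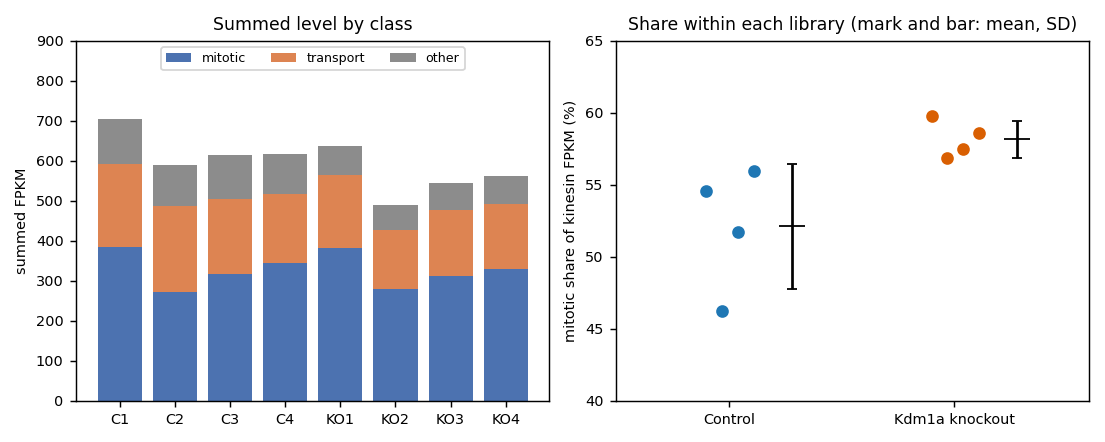
Left, FPKM summed over mitotic, transport and other kinesins in each library (C, control; KO, knockout). Right, the mitotic share of all kinesin FPKM in each library, with mean and SD, on an axis from 40 to 65%; controls lie at 46.2% to 55.9% and knockouts at 56.8% to 59.8%.

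The other kinesins held most of the falls. Of 8 tested, 6 fell, 1 rose and 1 was not called, where 12.1% of all genes fell and 25.3% rose. Kif19a, counted in the 6, was tested only because its controls lifted its mean past the filter. The median change was -0.53, against 0.09 over all genes. With equal totals 1 fell and 1 rose, and the median was 0.13, or -0.61 relative to all genes. Their sum went from 106.7 ± 5.10 to 68.3 ± 3.86 FPKM. The difference from the mitotic and transport classes was not tested.

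Kif26a fell more than any other kinesin gene tested. It encodes a kinesin that binds microtubules without using ATP and is known in enteric neurons as a scaffold that restrains signalling from the GDNF receptor RET through GRB2. The gene (ENSMUSG00000021294) lies on the plus strand of chromosome 12 from 112146208 to 112181747 in mm10 and has a single transcript entry. Its levels were 23.1, 22.7, 22.1 and 16.8 FPKM in the controls and 6.38, 4.22, 4.86 and 4.19 in the knockouts. The groups were far apart, with the lowest control well above the highest knockout. The mean fell 4.31-fold, from 21.2 ± 2.96 to 4.92 ± 1.03 (log2 change -1.91, SE 0.14, adjusted p = 1.994e-05), from the 12th to the 28th place among the 39 kinesin genes. It was called under every alternative tried, equal totals included. Its relative Kif26b, outside the filter and tested only with no filter on low values, was at 0.269 ± 0.0983 and 0.0919 ± 0.0116 FPKM.

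Kif7 is a conserved regulator of Hedgehog signalling at the tip of the primary cilium. It was at 8.61, 9.24, 7.59 and 6.89 FPKM in the controls and 4.43, 4.57, 4.10 and 4.50 in the knockouts, 1.84-fold lower (log2 change -0.74, SE 0.10, adjusted p = 0.000540). Its knockout libraries lay close together and below all controls. Kif27, its closest relative, known from motile cilia, was at 10.2, 9.99, 9.92 and 8.93 FPKM in the controls and 7.46, 7.97, 7.25 and 7.10 in the knockouts, 1.31-fold lower (log2 change -0.35, SE 0.08, adjusted p = 0.00870), with a change of 0.30 under equal totals.

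Smo, the membrane protein that starts the Hedgehog response in the primary cilium, fell from 10.1 ± 2.26 to 6.79 ± 0.711 FPKM (log2 change -0.50, SE 0.15, adjusted p = 0.0273), with no overlap between the groups.

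Kif24 and Kif19a encode motors that remodel microtubules at cilia. Kif24, which holds back the growth of primary cilia together with CP110, was at 12.2, 12.4, 11.4 and 9.72 FPKM in the controls and 8.39, 4.37, 6.82 and 7.63 in the knockouts, 1.68-fold lower (log2 change -0.70, SE 0.17, adjusted p = 0.0108). Kif19a, which shortens motile cilia from the tip, was at 1.14, 1.91, 2.03 and 1.47 FPKM in the controls and 0.458, 0.981, 0.547 and 0.401 in the knockouts, 2.74-fold lower (log2 change -0.72, SE 0.15, adjusted p = 0.00507). Kif19a passed the filter on low values through its controls alone, so its call is no independent support for the class. In neither gene did the groups overlap, and in both the call was lost with equal totals (adjusted p = 0.873 and 0.0613).

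Kif9 was the exception in the class. It encodes a motor of the central apparatus of motile cilia and of the sperm flagellum. Its levels were 1.501, 1.70, 1.78 and 1.51 FPKM in the controls and 2.88, 2.59, 2.49 and 2.84 in the knockouts, 1.66-fold higher with no overlap (log2 change 0.50, SE 0.09, adjusted p = 0.00222). Kif6, which is needed by the cilia of the brain's ependyma, had 1.85 ± 0.270 FPKM in the controls and 1.78 ± 0.260 in the knockouts (adjusted p = 0.834, not called).

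Kif2a, a depolymerase at spindle poles and in growing neurites, was the highest kinesin gene in the controls and the fourth in the knockouts. It was at 53.7, 44.9, 52.2 and 53.8 FPKM in the controls and 41.1, 37.9, 38.7 and 40.8 in the knockouts, 1.29-fold lower with no overlap (51.1 ± 4.24 and 39.6 ± 1.57, log2 change -0.36, SE 0.08, adjusted p = 0.00731). Equal totals turned its sign (0.35, not called). Its place is a matter of choice, since it also acts in mitosis: counted there, it would make 2 falls among 14 mitotic kinesins.

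Below the level of the gene, 5 of the 21 kinesin genes with several transcript entries had an entry whose share of the gene did not overlap between the groups. The same count was not made over all genes, so whether 5 of 21 is many or few cannot be said. Of the 97 entries, 69 are protein-coding in GENCODE M21 and 15 retain an intron, and 18 of the 39 genes have a single entry. In Kif2a, the protein-coding entry of 2023 bases went from 23.3 ± 1.84 to 15.6 ± 3.69 FPKM, while the longer one of 5304 bases went from 6.70 ± 1.30 to 9.76 ± 2.16. The longer entry's share of the gene was 9.58% to 15.1% in control libraries and 18.3% to 33.6% in knockout libraries, with no overlap. In Kif6, whose total did not change past the threshold, the protein-coding entry went from 0.549 ± 0.139 to 0.219 ± 0.0418 FPKM and from 20.9% to 43.0% of the gene in the controls to 9.55% to 16.5% in the knockouts. In Kif3a, the share of the 3161-base entry was 30.4% to 34.0% in control libraries and 34.1% to 45.7% in knockout libraries. Smaller shifts were seen in Kif4, whose 4983-base entry held 92.6% to 94.6% in the controls and 88.5% to 91.3% for the knockouts, and in Kifc1, whose 2357-base entry held 63.1% to 70.4% and 70.6% to 82.8%. Shares among overlapping transcripts are estimates, no test was run on them, and these genes were singled out after their values were seen.

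**Figure D4:**
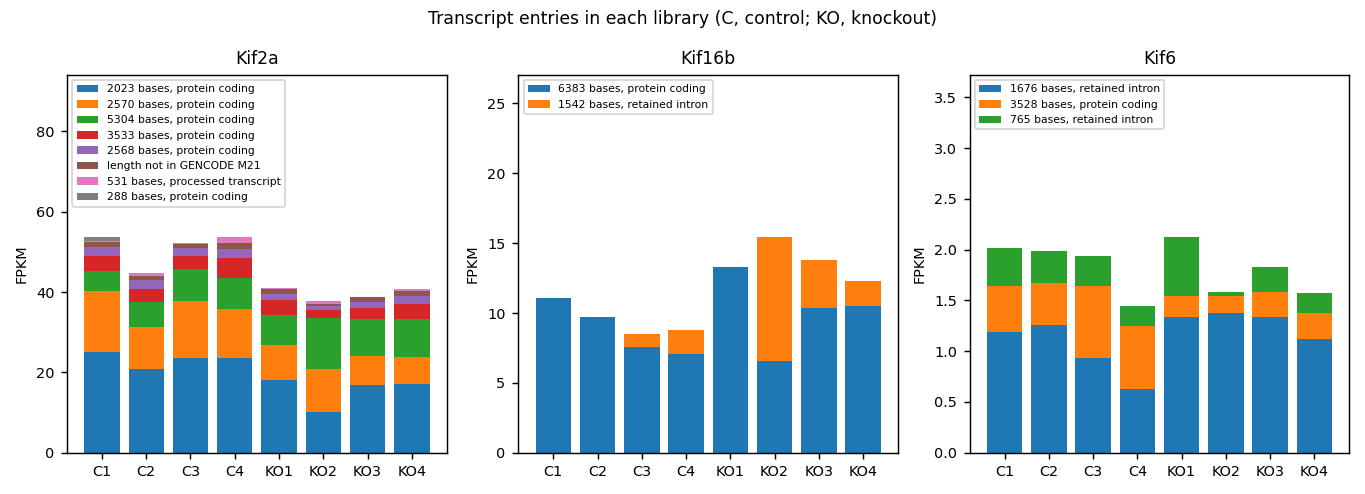
FPKM of each transcript entry of Kif2a, Kif16b and Kif6, stacked in each library (C, control; KO, knockout), with entries named by length and GENCODE type. The 5304-base entry of Kif2a is larger in each knockout library as a share of the gene (18.3% to 33.6%) than in any control, the retained-intron entry of Kif16b takes 57.4% in knockout replicate 2, and the protein-coding entry of Kif6 is smaller in each knockout.

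Conventional kinesins carry cargo through light chains and adaptor proteins, and that list changed in both directions. Of 17 cargo subunits and adaptors tested, 6 rose, 3 fell and 8 were not called, or 52.9% called against 37.5% of all genes, with a median of -0.09. Mapk8ip1, the scaffold JIP1 that links kinesin light chains to cargo, was at 13.1, 13.5, 14.7 and 11.7 FPKM in the controls and 3.78, 5.26, 5.21 and 4.15 in the knockouts, 2.87-fold lower (log2 change -1.35, SE 0.12, adjusted p = 4.123e-05). Fez1 and Fez2, adaptors of the heavy chains, rose from 0.510 ± 0.0466 to 2.07 ± 0.804 FPKM (adjusted p = 0.00210) and from 6.78 ± 0.583 to 12.8 ± 1.90 (adjusted p = 0.000527). Fez1 passed the filter through its knockout values alone. Kidins220, a membrane cargo bound by light chains, rose from 14.3 ± 2.03 to 25.9 ± 5.73 FPKM (adjusted p = 0.00513).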

How the data were processed

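RNA of 4 control and 4 knockout libraries was measured by stranded mRNA sequencing, per the labels' protocols. The authors deposited FPKM per transcript entry. TopHat, Bowtie, Cufflinks and Cuffdiff with mm10 were used, per the submitters' processing notes; for versions, strand setting and annotation, nothing is given in the sources used here. Cufflinks divides shared fragments among similar transcripts, so Kifc1, Kifc5b and overlapping genes are uncertain.

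The 45550 entries were summed to 17589 genes by identifier. Genes averaging 1 FPKM or more were tested on log2(FPKM + 1), pseudocount 1, by limma 3.58.1 in R 4.3.3 (intensity trend, group only, two-sided), adjusted by Benjamini-Hochberg over 13483 genes and called under 0.05. FPKM are not counts, so no count model was used. Folds are ratios of mean FPKM, and the log2(FPKM + 1) scale understates changes of low genes. On data simulated for this comparison and 13483 genes, 84% of genes changed by 1 and 98% of those changed by 2 on the log2 scale were recovered. Noise was drawn independently for each gene and library. Changes smaller than 1, as in all tested kinesin genes but Kif26a, were not simulated, so their recovery is not known.

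Depth was inferred from 2615 genes with a single entry. A tolerance of 0.1 fragment held 73.9% to 81.4% of low values at whole fragments, where chance gives 20%. Transcript types and positions came from GENCODE M21, with 44291 entries and 17257 genes found, and promoters from RefSeq.

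Kinesin members, classes, partner lists and marker lists were chosen with earlier results of these data known. Every tested kinesin gene was named, with values in every library for called genes and for the 5 of highest mean in the mitotic and transport classes, and up to 4 called genes of each partner list. The values of 1 gene that this rule names, and the counts of its list, are not reported here. Kifap3, Cenpe and the transcript shares fall outside that rule and were chosen with their values in view. Alternatives covered pseudocount, filter, scaling, small RNAs, intensity trend, replicate block, each library left out, the most abundant entry and values of 0 as missing.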

Additional observations from a re-analysis of the deposited data

Results flagged for a closer look

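In 74 groups of 4 libraries (each of the 37 tested kinesin genes in controls and in knockouts), the extreme library was compared with its neighbour, and a gap above Dixon's critical share of the group's range was taken as unusual. Chance gives about 1 such group in 20, and 3 of the 74 were found, no more than that rate. Kif26a was at 16.8 FPKM in control replicate 4, against 22.1 in the next control, a gap of 0.846 of the range. Kif5a was at 4.09 FPKM in knockout replicate 2, against 5.84 in the next knockout, a gap of 0.856. Kif6 was at 1.44 FPKM in control replicate 4, against 1.94 in the next control, a gap of 0.860. Kif26a and Kif5a remained called with each library left out in turn, with log2 changes from -2.02 to -1.85 and from -0.59 to -0.43.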

How the results depend on the processing

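Of the 16 called kinesin genes, 4 kept their call in every alternative in which they were tested (Kif26a, Kif13a, Kif21a and Kif9). In all but equal totals 12 kept it, and 13 with each library left out in turn. Of the 4, only Kif26a was tested in all 19 alternatives. The filter at 5 FPKM left out Kif13a, Kif9 and Kif21a, and Kif21a was also untested with the most abundant entry. Among the 12, Kif17 was tested in 18 and Kif19a in 17. Equal totals gave, as rises and falls, 9549 and 151 over all genes, 15 and 1 among kinesins, 8 and 0 among mitotic, 6 and 0 among transport and 1 and 1 among other kinesins, and 52 and 1 in the partner lists, with medians of 0.64 (mitotic), 0.45 (transport) and 0.13 (other) beside 0.74 over all genes. Among genes called as deposited or with equal totals, signs turned there for Kif1c (0.12), Kif20a (0.58), Kif23 (0.64), Kif27 (0.30), Kif2a (0.35), Kif2c (0.69), Kif3b (0.62), Kif3c (0.54), Kif5a (0.09), Kifc3 (0.52) and Kifc5b (0.31). Signs also turned in genes called in neither, such as Kif11 (0.52), Kif13b (0.43), Kif14 (0.36) and Kif18b (0.34). Median-ratio scaling gave 0 rises and 2 falls among mitotic kinesins, 5 falls among transport kinesins and 28 in the partner lists. Quantile normalization gave 2648 falls over all genes, 1 rise and 2 falls among mitotic kinesins and 5 falls among transport kinesins. With small RNAs removed (153 tested genes) and the rest given equal totals, or with no intensity trend, 1 mitotic kinesin rose. A filter at a mean of 5 FPKM left 2164 rises over all genes, 3 among kinesins, 1 among transport and 0 among other kinesins, with a median of -0.70 for the last, because fewer genes were tested. With the most abundant entry in place of the sum, 3 kinesins rose, 1 mitotic and 1 transport. The median of the other kinesins was -0.36 with no filter and -0.66 with quantile normalization. Kif2a counted as mitotic made 2 falls among mitotic kinesins. Alternatives for the other kinesins were added after seeing the data. Apart from those due to the filter, the cause of these shifts was not tested.

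Over all genes, the replicate numbers shared by the groups did not pair the libraries: deviations of same-numbered libraries correlated at 0.224, -0.119, -0.133 and -0.093. Among the 13 mitotic kinesins, though, replicate 1 was the highest library in 12 in both groups. With the replicate number as a block, the SE went from 0.17 to 0.07 for Kif11 and from 0.14 to 0.07 for Kif18b, but from 0.10 to 0.12 for Kif22. With the replicate number as a block, 2983 genes rose and 1408 fell, and 4 kinesins rose and 12 fell, with 0 and 2 among mitotic and 3 and 4 among transport kinesins.

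With each library left out in turn, rises and falls ranged from 2658 to 3855 and from 1170 to 2025 over all genes, from 4 to 6 and from 9 to 12 among kinesins, and from 0 to 2 and from 0 to 2 among mitotic kinesins. Among transport kinesins 3 rose each time and 3 to 5 fell, and in the partner lists 12 to 18 rose and 9 to 21 fell. The mitotic median ranged from -0.16 to 0.05 and the transport median from -0.31 to -0.12. Among other kinesins 1 rose and 6 fell each time, with a median from -0.57 to -0.45. The table holds no counts, so counting error was not computed, and depth limits mainly Kif2b, at 7 to 18 fragments in a control library.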

Other observations

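Dynein is the motor that moves towards the minus ends of microtubules. Of 28 cytoplasmic dynein and dynactin genes tested, 7 rose and 4 fell, which left 17 not called, with a median change of 0.05. The called share, 39.3%, was near the 37.5% of all genes. Dynlt3, a light chain, rose from 5.07 ± 0.521 to 12.8 ± 1.07 FPKM (limma adjusted p = 3.137e-05), Bicd1, a cargo adaptor, from 0.759 ± 0.198 to 2.81 ± 0.444 (0.0001465), Dync1i1, an intermediate chain known mainly from neurons, from 0.720 ± 0.282 to 2.85 ± 0.469 (0.0002869), and Dctn6, a dynactin subunit, from 25.2 ± 1.70 to 39.1 ± 6.52 (0.003013). In these 4 genes the groups did not overlap, and Bicd1 and Dync1i1 passed the filter through their knockout values alone.

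Intraflagellar transport particles are moved by kinesin-2 towards the tip of a cilium and by a second dynein on the way back. Of 20 of their genes tested, 3 rose and 5 fell, which left 12 not called, with a median change of 0.11 and a called share of 40%, again near that of all genes. Ift140 fell from 21.6 ± 1.18 to 14.3 ± 0.393 FPKM (adjusted p = 0.0003903), Ift122 from 11.7 ± 0.999 to 7.42 ± 0.222 (0.0007046) and Ift172 from 10.9 ± 0.652 to 7.01 ± 0.593 (0.0009549). Ift140 and Ift122 encode parts of complex A, which serves the return from the tip, and Ift172 a part of complex B. Ift57, also of complex B, rose from 6.13 ± 0.503 to 9.35 ± 1.25 FPKM (0.003945). Genes were named here by adjusted p, and neither complex was counted as a whole. These directions are those of the FPKM as deposited.

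Stard9, a mitotic motor outside the symbol rule and named after its value was seen, went from 11.1 ± 1.10 to 9.90 ± 2.18 FPKM, and its change missed the threshold (adjusted p = 0.385).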
